A study of Mus musculus with 16 samples.

Results

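Oogenesins are oocyte proteins of the PRAME family, and 6 genes of this group, Oog1, Oog2, Oog3, Oog4, C87977 and Pramef12, are described here among the 25965 genes of the expression table. They were picked by name from that table for their RPKM (reads scaled to exon length and library size) in its 9 columns, where Oog3 had the largest log2 rise during oocyte growth among the 10518 genes that passed a filter on low values. Their change in expression was therefore known when they were picked, and it is given below as a description without a test. The table holds 39 further genes of the PRAME family, taken by name from a list made with earlier results of these data known, and the 15 of them that passed a filter on low values were tested. These 39 leave out CT954323.1 and Gm2042, genes of chromosome 12 that share exon sequence with Oog1.

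The PRAME family, named after an antigen first found in melanoma, comprises leucine-rich repeat proteins and has expanded strongly in rodents, with most mouse copies in tandem arrays on chromosome 4. Oogenesins are known as transcripts of oocytes and early embryos, and their functions are largely unsettled. In growing oocytes, DNA methylation is laid down mainly over transcribed gene bodies, while the starts of active genes stay largely unmethylated.

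The study sorted mouse oocytes by diameter to follow methylation and transcription during growth. All 16 samples were wild-type oocytes of the background strain C57BL/6, given as C57BL/6Babr in the methods of the study, each a pool of many oocytes, and the number of animals behind a pool is not given in the sources used here. RNA-seq libraries A and B were made for each of 4 size classes, which had diameters of 10–30 μm, 40–45 μm, 50–55 μm and 60–65 μm, and GV oocytes (fully grown, with an intact germinal vesicle) had 1 column of values. RRBS, which samples CpG-rich DNA, was done in duplicate for the 3 larger classes, and PBAT, which samples the whole genome, was done once for 60–65 μm oocytes. Per the methods of the study, the mice were 5 to 7, 7 to 12, 9 to 14 and 13 to 16 days old for the 4 size classes in order of diameter, and 20 days old for GV oocytes, so that diameter and age of the animal cannot be told apart. Oocytes were picked by hand and washed to remove somatic cells.

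The depth implied by the smallest steps of the RPKM values was 99369452 to 198298123 reads per RNA library, and PBAT gave 99039028 calls at 29487581 CpG cytosines, or 3.36 per cytosine. All 10 oocyte markers examined (among them Zp1, Zp2, Zp3, Gdf9 and Figla) were at 0.5 RPKM or more in every library, with sums between 2496 and 3763 RPKM. The sum over 10 granulosa cell markers rose with diameter from 1.95 and 2.41 RPKM at 10–30 μm to 7.38 and 6.85 RPKM at 60–65 μm. Most of this sum came from Nr5a2. The defining markers Foxl2, Amh and Fshr lay between 0.0145 and 0.286 RPKM, and none of them was at 0 in any library. Between the same classes Fshr rose from 0.0436 and 0.0545 to 0.238 and 0.229 RPKM. Cyp19a1 rose from 0.161 and 0.159 to 1.25 and 1.04 RPKM. All of the 10 markers except Foxl2 and Wt1 were higher in both 60–65 μm libraries than in both 10–30 μm libraries. Of the blood and endothelial markers, 5 of 6 were in the table, and their sum rose from 0.806 and 0.741 to 5.08 and 4.58 RPKM, nearly all of it Pecam1, with Ptprc at 0.00823 RPKM or less in every library. The sum over 8 markers of theca and stroma lay between 0.441 and 2.77 RPKM and was highest at 10–30 μm. The part of other cells in the results below was not tested. In these pools, more RNA per oocyte and more oocytes with the transcript cannot be told apart either.

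The gene starts are shown first, because 5 of the 6 share runs of bases there. The 120 bases before each start, from RefSeq on GRCm38, read as follows on the strand of the gene. Capitals mark TATATA and runs of at least 8 bases that occur in all of Oog1, Oog2, Oog3, Oog4 and C87977.
Oog1, chr12:87602545-87602664, plus strand: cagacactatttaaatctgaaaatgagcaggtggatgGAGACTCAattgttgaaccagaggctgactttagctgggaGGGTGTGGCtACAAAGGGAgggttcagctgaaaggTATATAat
Oog2, chr4:144190597-144190716, plus strand: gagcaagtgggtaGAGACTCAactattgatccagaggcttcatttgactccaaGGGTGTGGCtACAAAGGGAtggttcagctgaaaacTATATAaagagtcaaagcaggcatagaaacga
Oog3, chr4:144162652-144162771, minus strand: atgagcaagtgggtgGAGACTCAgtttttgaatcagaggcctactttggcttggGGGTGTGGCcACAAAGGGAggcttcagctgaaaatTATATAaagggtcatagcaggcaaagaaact
Oog4, chr4:143450325-143450444, minus strand: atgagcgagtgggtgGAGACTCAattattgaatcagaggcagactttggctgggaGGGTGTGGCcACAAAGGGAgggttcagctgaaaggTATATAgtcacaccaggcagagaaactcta
C87977, chr4:144213018-144213137, minus strand: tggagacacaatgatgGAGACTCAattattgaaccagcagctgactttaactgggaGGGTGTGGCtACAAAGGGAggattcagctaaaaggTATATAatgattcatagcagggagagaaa
Pramef12, chr4:144408465-144408584, minus strand: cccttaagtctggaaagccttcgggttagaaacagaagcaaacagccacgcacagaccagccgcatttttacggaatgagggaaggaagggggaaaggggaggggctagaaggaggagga

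In the first 5 genes the runs GAGACTCA, GGGTGTGGC, ACAAAGGGA and TATATA stood in the same order, and Pramef12 had none of them. These runs were read off the 5 sequences themselves, so their presence there is a description. Over all 32851 RefSeq promoters, 8 held the 4 runs together in the 250 bases before the start, namely the 5 members, the family genes Gm13023 and Gm13084, and Gm2042, a gene of chromosome 12 that shares exon sequence with Oog1. The first base of TATATA lay 29 to 32 bases before the RefSeq start of Oog2, Oog3, Oog4 and C87977 and 8 bases before that of Oog1. Counted from the start in the expression table, it lay 34, 19, 30 and 31 bases before Oog2, Oog3, Oog4 and Oog1, so the distance depends on the annotation. TATATA between 20 and 45 bases before the start, on the strand of the gene, was found in 1.02% of all promoters, in 4 of 11 promoters of other expressed family genes and in 4 of 20 promoters of family genes below the filter. The table and RefSeq place the start of C87977 301 bases apart, and for this gene TATATA lies inside the span that the table gives.

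Among motifs searched on both strands from 250 bases before to 50 bases after the start, TATAAA was found at Oog2 and Oog3 (13.6% of all promoters), where it overlaps TATATA. The homeobox-type motif TAATTG was found at Oog3, Oog4, C87977 and Pramef12 (8.0% of all promoters), and TAATTA at none of the 6 (5.29%). The E-box CAGGTG, which reads CACCTG on the other strand, was found at Oog1 and C87977 (20.2%). The promoter of Pramef12 held 7 CpGs, and those of the other 5 held 0 to 3.

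The proteins followed the same division. Translated from the RefSeq gene models, Oog1, Oog2, Oog3, Oog4 and C87977 were 496 to 502 residues long and Pramef12 463. Oog1 and C87977, which lie on different chromosomes, were the closest pair, with 92.3% of the residues of the shorter protein identical. The other pairs among the 5 shared between 54.1% (Oog2 and Oog4) and 67.3% (Oog1 and Oog3), whereas Pramef12 shared 35.4% to 37.8% with each of them. Closer relatives stood outside the 6 genes for some: Gm13084 was 97.2% identical to Oog2, and Gm13023 93.6% identical to C87977.

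**Figure D1:**
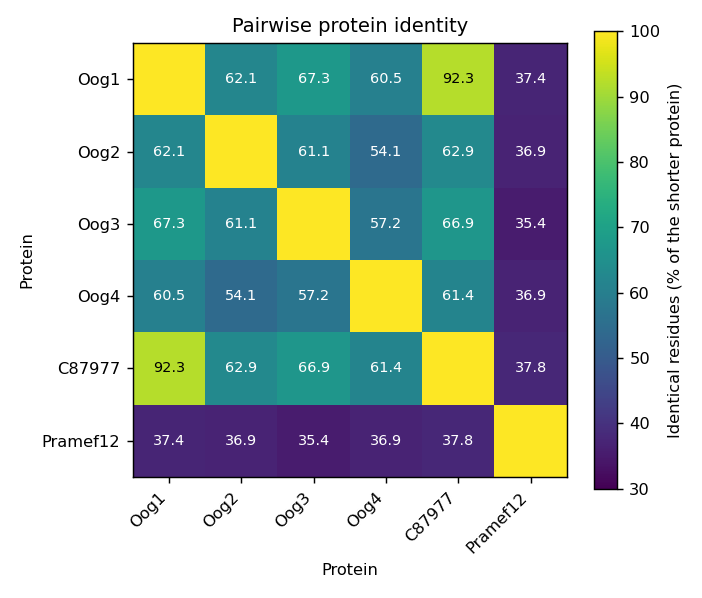
Pairwise identity of the 6 proteins, as the percent of the residues of the shorter protein that are identical in a global alignment, with 1 cell per pair on a colour scale from 30 to 100%. Oog1 and C87977 reach 92.3%, and the row of Pramef12 stays between 35.4% and 37.8%.

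These likenesses bear on how reads could be assigned, since the authors let each read be reported at 1 place. Of the stretches of 100 bases (the read length) in its annotated exons, 75% occurred elsewhere in the genome for Oog1, 23.2% for Oog2, 15.9% for C87977 and 12.9% for Oog3. No such stretch of Oog4 or Pramef12 occurred elsewhere. Oog1 shared 74.1% of its stretches with CT954323.1 and 26.6% with Gm2042, 2 genes on the same chromosome, Oog2 shared 21.8% with Gm13084, and C87977 14.1% with Gm13023. The values of Oog1 in particular may hold reads of its copies, and CT954323.1 itself had a mean of 21.3 RPKM at 10–30 μm and 104.1 RPKM at 60–65 μm.

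Oog3, on the minus strand of chromosome 4 (144157557 to 144162663), started lowest of the 6. Its RPKM was 0.367 and 0.229 in libraries A and B at 10–30 μm, then 7.45 and 2.76 at 40–45 μm, then 40.1 and 27.3 at 50–55 μm, then 70.7 and 61.1 at 60–65 μm, with 105.2 in GV oocytes. Each size class lay wholly above the one before. The first of these values rest on 68 reads in each library, and those at 60–65 μm on 13866 and 20606 reads. From 10–30 to 60–65 μm the log2 fold change on the log2(RPKM + 0.1) scale was 7.38 ± 0.42 (SE, 2 libraries per class), the largest of the 10518 genes tested, which are those that reached 0.5 RPKM in at least 2 of 8 growing-oocyte libraries. The ratio of the mean RPKM, without a pseudocount, was 221. With a pseudocount of 1 the log2 fold change was 5.67 instead of 7.38. It remained positive, but the size of the fold depends strongly on the pseudocount.

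Library A of 40–45 μm oocytes was 2.70 times library B for Oog3, the widest gap between replicates among the 6. The log2 fold change to 40–45 μm was 3.63 ± 0.42 (SE), and 2.90 without library A or 4.36 without library B of that class. The next step, to 50–55 μm, was 2.80 ± 0.42 (SE) and became 3.53 or 2.07 in the same order. How the rise divides between these steps thus depends on 1 library, while both steps kept their direction.

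C87977 (minus strand of chromosome 4, 144206775 to 144213318) and Oog2 (plus strand, 144190719 to 144196934) are neighbours of Oog3 and followed it at lower slopes. C87977 was at 0.942 and 0.874 RPKM at 10–30 μm, then 7.13 and 4.37, then 20.2 and 16.8, and reached 28.6 and 25.8 at 60–65 μm and 39.3 in GV oocytes. Its classes did not overlap, and the log2 fold change over growth was 4.76 ± 0.22 (SE), the 7th largest of the genes tested. Oog2 went from 0.965 and 1.14 RPKM over 4.97 and 3.30, then 11.8 and 9.61, to 16.4 and 14.4 at 60–65 μm, with 22.7 in GV oocytes. By class means it was the lowest of the 6 from 40–45 μm on, where its libraries overlapped those of Oog3, with a log2 fold change of 3.75 ± 0.20 (SE).

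Oog4 (minus strand of chromosome 4, 143437164 to 143450324) lies apart from these 3 genes in the same array. It was at 2.57 and 2.35 RPKM at 10–30 μm, then 13.6 and 9.84, then 38.4 and 34.6, and reached 63.0 and 55.1 at 60–65 μm and 74.8 in GV oocytes. The log2 fold change was 4.53 ± 0.17 (SE), the 8th largest. None of its exonic stretches recurs in the genome, so no read of full length that matches its exons exactly has another place. Its libraries did not overlap between classes.

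Oog1, the one member on chromosome 12 (plus strand, 87602688 to 87608845), was already abundant in the smallest oocytes. Its RPKM was 16 and 15.6 at 10–30 μm, then 48.4 and 38.0, then 76.9 and 75.3, and reached 96.1 and 99.4 at 60–65 μm and 126.2 in GV oocytes. The log2 fold change of 2.62 ± 0.14 (SE) was the 148th largest. Its classes did not overlap, and the level at 60–65 μm ranked 93rd among the genes tested.

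Pramef12 (minus strand of chromosome 4, 144391674 to 144408464) had the smallest rise of the 6. It had the highest RPKM of the 6 at 10–30 μm, 32.5 and 36.6, then 39.9 and 45.0, 52.9 and 51.6, and 59.4 and 55.2 at 60–65 μm, with 67.2 in GV oocytes. Libraries of successive classes did not overlap, but the log2 fold change over growth was 0.73 ± 0.09 (SE), the 1769th largest.

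**Figure D2:**
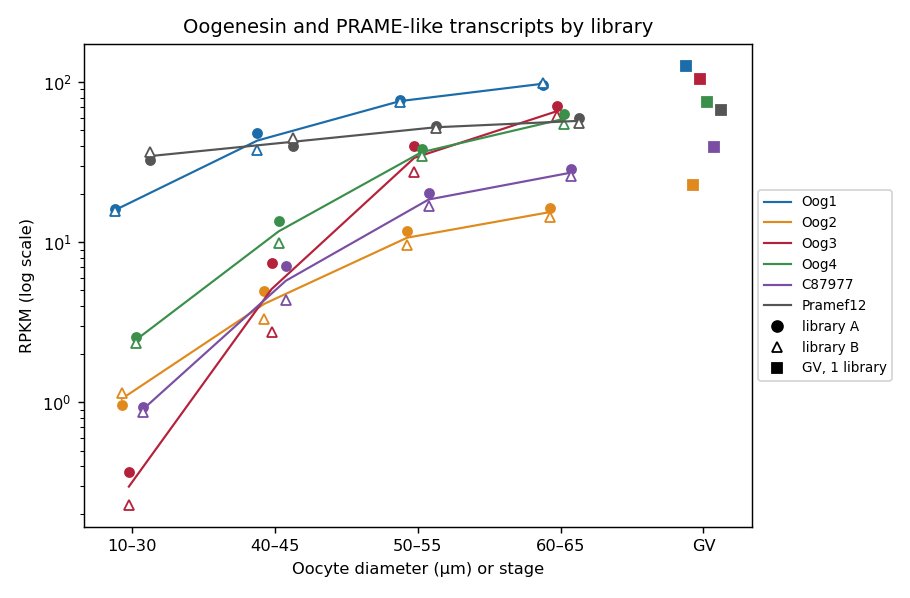
RPKM of the 6 genes (log axis) by oocyte diameter and in GV oocytes, with 1 point per library (A filled, B open) and lines through the class means of 2 libraries. Oog3 rises from 0.367 and 0.229 to 70.7 and 61.1 RPKM and its class mean passes those of C87977, Oog2, Oog4 and Pramef12, while Pramef12 stays between 32.5 and 67.2 RPKM, GV oocytes included.

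The order of the 6 genes turned over during growth. At 10–30 μm it was Pramef12, Oog1, Oog4, Oog2, C87977 and Oog3, with no overlap between the libraries of neighbours. At 60–65 μm it was Oog1, Oog3, Oog4, Pramef12, C87977 and Oog2, and the libraries of Oog3 and Oog4, and of Oog4 and Pramef12, overlapped. The GV column had the same order as 60–65 μm oocytes. At 40–45 μm the libraries of Oog1 and Pramef12, of C87977 and Oog3, and of Oog3 and Oog2 overlapped. Summed over the 6 genes, RPKM went from 53.3 and 56.8 at 10–30 μm to 334.2 and 311.1 at 60–65 μm and 435.3 in GV oocytes.

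Each of the 6 genes had non-overlapping, higher libraries in each of the 3 steps, whereas of all genes tested 22.4%, 33.0% and 32.0% did so in the 3 steps in order of diameter. The step to 40–45 μm made up 49.1% (Oog3) to 57.3% (Oog1) of the log2 rise from 10–30 to 60–65 μm. The step to 50–55 μm made up 30.1% (Oog1) to 37.9% (Oog3), and the last step 11.2% (C87977) to 14.6% (Oog4). Pramef12, with its small rise, divided it as 49.9%, 36.0% and 14.1%. The shares come from the same libraries and depend on them. Leaving out library A or B of 40–45 μm oocytes moved the share of the first step between 39.3% and 59.0% for Oog3 and between 49.5% and 65.0% for Oog1, more than the difference between these genes. For Pramef12 the share of the last step ran from 7.22% without library A to 18.5% without library B of 60–65 μm oocytes. The median log2 fold change of the 6 genes was 2.09, 1.47 and 0.52 in the 3 steps, beside 0.00, -0.01 and 0.01 for all genes tested.

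GV oocytes were above both 60–65 μm libraries for all 6 genes, without a replicate to give an error. Of all 10518 genes tested, 35.1% were above both 60–65 μm libraries in the GV column. The ratio to the mean at 60–65 μm was highest for Oog3 (1.60) and lay between 1.17 (Pramef12) and 1.47 (Oog2) for the others.

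The 39 other family genes give the setting of this rise, and they were tested with limma. Of these, 15 passed the filter on low values, 10 of them on chromosome 4 and 5 on chromosome 5. From 10–30 to 60–65 μm, 14 of the 15 rose at an adjusted p under 0.05, against 31.5% of all genes tested, and none fell, against 31.8%. The exception was Pramef8, near Oog4, with a mean of 3.69 RPKM at 10–30 μm and 3.95 RPKM at 60–65 μm (log2 fold change 0.10 ± 0.10 SE, adjusted p = 0.429 with limma). Gm13089, Pramef17, Gm13088 and Gm13128 were below 0.5 RPKM at 10–30 μm and passed the filter through later classes, so they had to rise. Of the other 11, which passed it in both 10–30 μm libraries, 10 rose.

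The largest rises among the 11 were those of Gm13023 (log2 fold change 4.38 ± 0.20 SE, adjusted p = 5.8e-06 with limma) and Gm13103 (4.14 ± 0.20 SE, adjusted p = 5.8e-06). Gm3259, AA792892, C87499, C87414 and Gm13084 rose by 2.44 to 3.71 on the log2 scale. The 4 genes that started below the filter had log2 fold changes of 2.78 (Gm13128) to 4.79 (Gm13089), given without a test. D5Ertd577e, E330014E10Rik and Gm13125 rose by 1.15 to 1.58. Gm13084 reached the highest level, 103.2 and 101.5 RPKM at 60–65 μm, above Oog1. Most of these values carry the same doubt on read assignment as those of Oog1, Oog2 and C87977. Of the 14 genes with annotated exons, 10 had at least 20% of their exonic stretches elsewhere in the genome and 6 at least 50%, up to 86.0% for E330014E10Rik. Gm13089, C87499 and Pramef8 had none elsewhere, and of these C87499 rose by 2.90 ± 0.18 (SE) on the log2 scale.

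By step, 13 of the 15 rose to 40–45 μm (13.2% of all genes tested rose and 9.76% fell) and 10 to 50–55 μm (5.27% rose and 3.45% fell). Among the 11 that passed in both 10–30 μm libraries, 9 and 6 rose in these steps. From 50–55 to 60–65 μm none of the 15 was called with limma, nor was any gene at all (0%), while 1441 genes had an unadjusted p under 0.05. Without library B of 40–45 μm, or without library A of 50–55 μm, no gene at all was called in the second step, so the count of 10 became 0 along with that of all genes. Library A was above library B for 14 of the 15 genes at 40–45 μm and all 15 at 50–55 μm, as for 5 and 6 of the 6 oogenesin and PRAME-like genes.

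**Figure D3:**
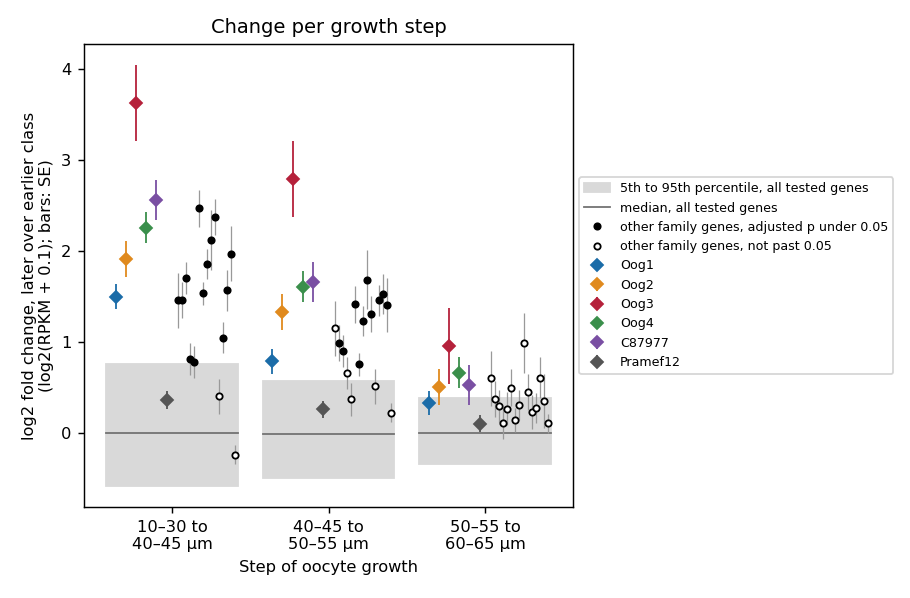
Log2 fold change of each growth step, on log2(RPKM + 0.1) values with SE bars, for the 6 genes (coloured diamonds) and 15 other family genes (circles, filled where the adjusted p is under 0.05), over the 5th to 95th percentile (grey) and median of all genes tested. Oog3 leads at 3.63 and 2.80 in the first and second step, and no circle is filled in the last. Gm13088, Gm13089, Gm13128 and Pramef17 passed the filter only through later classes, so their filled circles are a description and not a test result.

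The remaining 24 family genes stayed below 0.5 RPKM. The highest value of any of them in a library of growing oocytes was 0.183 RPKM, and 5 were listed at 0 in all 9 columns. Of the 23 with annotated exons, 8 had at least 90% of their exonic stretches elsewhere in the genome, with 100% in 5, so a low value in these may reflect where reads were placed, which was not tested. In 4 of the 23 no stretch occurred elsewhere. They lie interspersed with the expressed genes, 16 of them on chromosome 4. Of the family genes that start within 100 kb of Oog3, Oog2 or C87977 and are not among the 6, Gm13102 and Pramel5 stayed at or below 0.0418 RPKM on average at 60–65 μm. Pramef12 had 2 expressed neighbours within 100 kb, Gm13125 with a mean of 27.3 RPKM and Gm13128 with 0.900 RPKM at 60–65 μm. Oog1 had none in that distance, since Gm8300, Gm4027 and Gm16381 stayed below the filter.

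Genes with a profile like that of Oog3 were looked for among 441 genes whose class means spanned at least 4-fold. The highest Pearson correlations with it over the 8 libraries were those of Gm2309, Sirt5 (a mitochondrial lysine deacylase), AC130832.1, Mill1 (an MHC class I-like protein) and the family gene C87414, with r between 0.9987 and 0.9996. The 5 genes most like Oog1 were Usp29 (a ubiquitin peptidase), Gm13023, Gm13103, Sebox (a homeobox factor of oocytes) and Hsd17b13, with r between 0.9983 and 0.9990. All of these points share the same 8 libraries and a rise with diameter, and 85 of the 441 genes had r of at least 0.99 with Oog3 and 76 with Oog1. With the GV column as the 9th point, 1 of the 5 genes remained for Oog3 (Gm2309) and 3 for Oog1.

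PBAT of 60–65 μm oocytes gave few calls in these genes. At the threshold of 5 reads, 37 CpG cytosines of the 6 gene bodies (from 500 bp after the start to the end) had a mean methylation level of 39.2%, and their 257 calls were methylated in 39.3% (95% Wilson interval 33.5 to 45.4%). Of these positions 29 lay in Pramef12 (32.1%), 7 in Oog4 (71.7%) and 1 in Oog2 (20%). Oog1, Oog3 and C87977 had none, and are described from positions of at least 1 read with pooled calls, an alternative added after the data had been seen.

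By this measure the 6 gene bodies had 884 calls at 340 positions, with 36.2% methylated (33.1 to 39.4%). C87977 had 50.0% of 42 calls (35.5 to 64.5%), Oog4 43.6% of 195 calls (36.8 to 50.6%) and Oog3 40.0% of 25 calls (23.4 to 59.3%). Oog2 had 37.5% of 48 calls (25.2 to 51.6%), Pramef12 32.6% of 564 calls (28.9 to 36.6%) and Oog1 20% of 10 calls (5.67 to 51.0%). All intervals are 95% Wilson intervals of pooled calls, cover counting error only and stand for 1 library. The intervals of Oog3, Oog2 and Oog1 overlapped those of all other members, so no order among these could be read at this depth. The body of Oog4 had 43.6% here against 71.7% at its 7 positions of at least 5 reads, and the 7 positions do not stand for the gene.

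PBAT covered 13.9% of the CpG cytosines in the body of Oog1 with at least 1 read, and between 53.3% (Oog3) and 76.1% (Pramef12) in the other 5. The median over 8897 genes of 4 to 20 kb was 79.9%. Over the whole span of Oog1, 72.6% of all stretches of 100 bases occur elsewhere in the genome, beside 3.87% for Oog3, and the part of this in the coverage was not tested.

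Few calls at the starts were methylated, and most calls came from Pramef12. Within 500 bp of the 6 starts, 7 of 180 calls at 60 positions were methylated, or 3.89% (1.90 to 7.81%), and 107 of these calls lay at Pramef12. Pramef12 had 2.80% of 107 calls (0.958 to 7.92%), C87977 10.7% of 28 calls (3.71 to 27.2%) and Oog4 5.88% of 17 calls (1.05 to 27.0%). Oog2 had 0 of 17 calls (0 to 18.4%), Oog3 0 of 7 calls (0 to 35.4%) and Oog1 0 of 4 calls (0 to 49.0%). At Oog3 and Oog1 these calls come from 4 and 2 positions. This depth cannot tell an unmethylated from a partly methylated start there.

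Over 717 other genes of 4 to 20 kb with 10 RPKM or more at 60–65 μm, the median body methylation by pooled calls was 32.0% (10th to 90th percentile 10.0 to 55.2%), and all 6 members lay within that range. Over 5416 genes below 0.5 RPKM the median was 8.71%. The start regions of the highly expressed genes had a median of 3.45%, and those of genes below 0.5 RPKM 4.94%, so starts were low in both groups. In the family itself, the bodies of the 15 other expressed genes had 43.6% of 3990 calls methylated (42.0 to 45.1%), and those of the 24 genes below 0.5 RPKM 16.5% of 2321 calls (15 to 18.0%). Single genes below 0.5 RPKM reached 63.4%, and single expressed genes were as low as 3.45%, so the groups overlapped.

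**Figure D4:**
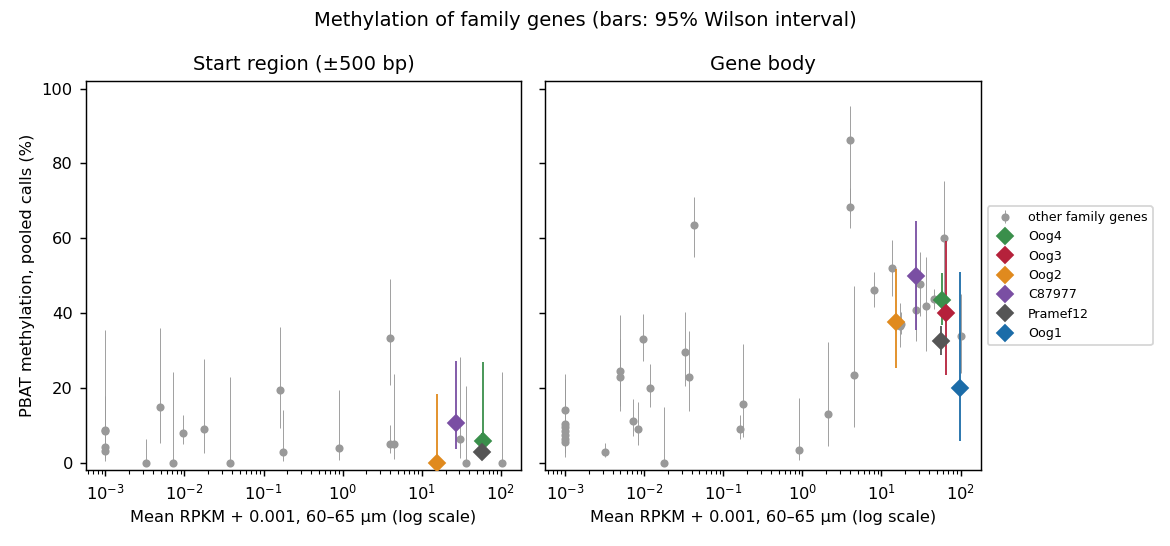
PBAT methylation of pooled calls (percent, 95% Wilson bars) within 500 bp of the start (left) and over the gene body (right) against mean RPKM + 0.001 at 60–65 μm (log axis), for family genes with at least 10 calls. The 6 genes lie between 20% and 50.0% in the body, and the 4 of them with 10 calls at the start lie between 0% and 10.7%.

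Over the 6 genes, the 10 kb before the start had 17.2% of 1912 calls methylated (15.5 to 18.9%), below the 36.2% of the bodies. The 10 kb after the end lay between 4.79% (Pramef12) and 27.2% (Oog2). At Oog4 the flanks were at 8.89% and 9.00% around a body of 43.6%. Pramef12 had the higher level before its start, 27.5% of 397 calls (23.3 to 32.0%), and 4.79% of 188 calls (2.54 to 8.85%) after its end. At Oog2, Oog3 and C87977 the level after the end was the higher one. Oog2 and C87977 end toward each other and share most of the 10 kb between them, at 27.2% and 27.1%. Before Oog1 the level was 24.4% of 464 calls (20.7 to 28.5%), close to that of its body within the wide interval of the latter. After the end of Oog1 it was 10.9% of 274 calls (7.78 to 15.2%), so this gene had the higher level before its start, like Pramef12.

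Along the chromosome 4 array, extended by 100 kb on each side to 1171 kb, 31.4% of 35753 calls were methylated, beside 22.2% in the whole library. The 206 kb around Oog1 had 25.3% of 4261 calls. In 25 kb windows the array alternated between low and high levels. The window that holds the start of Oog3 and most of the interval to Oog2 had 12.6% (10.2 to 15.3%), whereas a window 138 kb to the side of lower coordinates had 68.2% (66.0 to 70.4%) and 4 adjacent windows centred 62.0 to 137 kb to the other side had 55.8% to 65.4%. The windows that hold the starts of the members had 12.6% at Oog3, 17.2% at Oog4, 23.5% at Pramef12, 29.1% at Oog2 and 55.8% at C87977, and 10.8% at Oog1 on chromosome 12. The window value at C87977 does not stand for that gene. In this window, the 10 kb before its start had 9.90% of 202 calls methylated (6.50 to 14.8%). Most of the gene lies in the window that holds the start of Oog2, at 29.1%.

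**Figure D5:**
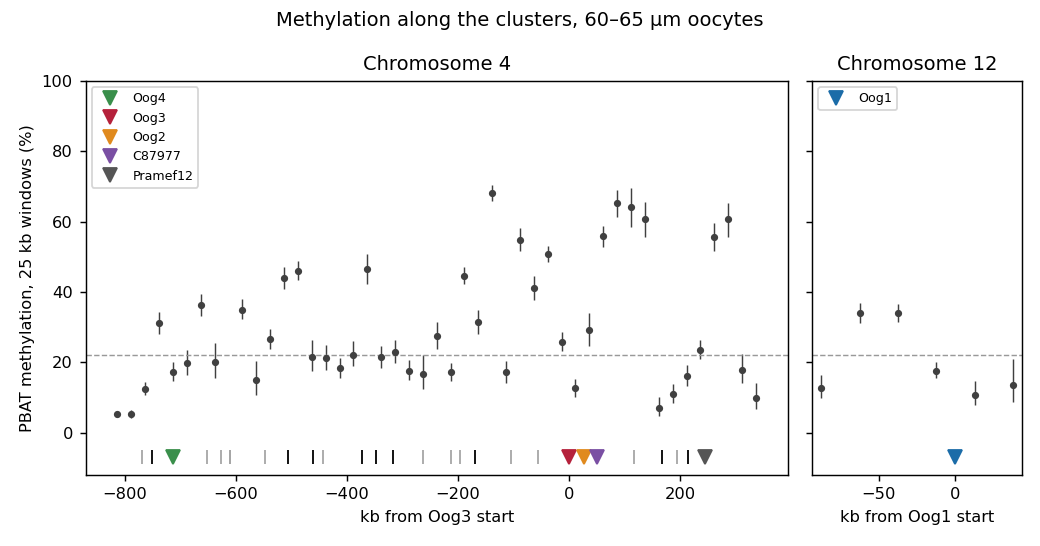
PBAT methylation in 25 kb windows with at least 50 calls (points, percent of pooled calls with 95% Wilson bars) along the arrays, by distance in kb from the start of Oog3 or Oog1 in the direction of rising coordinates. Triangles mark the 6 gene starts, black and grey ticks other family genes above and below 0.5 RPKM, and the dashed line the 22.2% of the whole library. Windows near Oog3 range from 12.6% to 50.8% within 40 kb of its start.

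RRBS, which would give the time course, hardly reached these genes. At 5 reads or more, the start of Pramef12 was the one covered part of the 6 genes, apart from 1 position in its body in 1 library. At 2 positions shared by the 6 libraries, Pramef12 had 0.752% and 0.312% methylation in 40–45 μm oocytes, 3.47% and 10.0% in the next class, then 1.76% and 4.93% in 60–65 μm oocytes. The 10.0% of library B of 50–55 μm oocytes rests on 20 calls (95% Wilson interval 2.79 to 30.1%), and the libraries of 50–55 and 60–65 μm overlapped. With 2 libraries against 2, an exact permutation test cannot reach p under 0.05, and none was done.

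Over the chromosome 4 array as a whole, 93 positions were shared, of which 45 lay at Lrrc38, a potassium channel subunit gene, 11 and 9 at the family genes Pramel1 and Pramef8, and 2 at Pramef12. The mean methylation of these positions was 3.65% and 3.68% in 40–45 μm oocytes, 3.31% and 5.89% in the next class, then 4.6% and 5.06% in 60–65 μm oocytes. Both libraries of 60–65 μm oocytes were above both of 40–45 μm, and those of 50–55 μm overlapped each other class. Near Oog1, 3 positions outside any gene had 1.19% and 0.402%, then 0% in both libraries, then 6.94% and 1.67%. Apart from the 2 positions at Pramef12, these values describe CpG-rich sequence around the members, not the members.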

How the data were processed

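The members and gene lists were chosen with earlier results of these data known. The authors trimmed reads with Trim Galore 0.2.8 (RNA) or 0.3.5 and aligned them to GRCm38, with TopHat2 2.0.9 for RNA (1 reported place per read) and Bismark 0.14.0 (RRBS) or 0.10.0 (PBAT, duplicates removed). They deposited RPKM per gene, although the table is named for read counts. Which tool made it, and whether it counted by strand, is not given in the sources used here. For 91.6 to 92.3% of values worth 1 to 20 reads, RPKM times exon length (GENCODE vM21) gave whole reads within 0.05. These totals are the depth given, and the span of Oog1 differs from that annotation, so no reads are given for it. Per CpG cytosine, the deposited files give the percent methylated and the count of methylated and of unmethylated calls, strands apart. RRBS reads were not stated to be deduplicated.

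RPKM were scaled by a trimmed mean of log ratios (30% by ratio, 5% by level at each end) and tested as log2(RPKM + 0.1) with limma 3.58.1 in R 4.3.3, with a variance trend, 8 libraries of growing oocytes in 1 fit, Benjamini-Hochberg adjustment over 10518 genes of at least 0.5 RPKM in 2 libraries and a threshold of 0.05. The fit was tested on simulated data. The p-values measure the spread between libraries of pooled oocytes, which may be technical. Methylation was computed from the calls, at positions of at least 5 reads unless stated, with bodies from 500 bp after the start. Family genes were taken by symbol or synonym (Prame, Oog) and from a list. The text names all 6 members, every family gene tested, the 5 genes most like Oog3 and Oog1, and neighbours that start within 100 kb and passed the filter. Gm13102, Pramel5, Gm8300, Gm4027 and Gm16381 are named as neighbours below it. CT954323.1, Gm2042 and Lrrc38, and the shared promoter runs, were singled out after the data had been seen. Promoters are from RefSeq (GRCm38.p6), and all 6 members had one. Alternatives were other pseudocounts, no filter, other scalings, a replicate block, other read minimums, pooled calls, both strands summed, whole genes and each library left out. Python 3.11.15, numpy 2.4.6, pandas 2.3.3, Biopython 1.88, numba 0.67.0 and matplotlib 3.10.9 were used.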

Additional observations from a re-analysis of the deposited data

How the results depend on the processing

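The rise of the 6 genes kept its direction in each step under every alternative tried, and 136 of 144 values stayed within 1 SD of the replicates. The other 8 came from a pseudocount of 1. From 10–30 to 60–65 μm the log2 fold changes ranged from 5.67 to 7.77 for Oog3, 3.88 to 4.89 for C87977, 4.11 to 4.64 for Oog4, 2.99 to 3.86 for Oog2, 2.53 to 2.67 for Oog1 and 0.68 to 0.79 for Pramef12. Leaving out single libraries moved 20 of 192 values, all when a 40–45 μm library was left out. The count of other family genes that rose from 10–30 to 60–65 μm was 24 of 34 tested without the filter on low values instead of 14 of 15, and 4780 of 20052 genes rose, 23.8% instead of 31.5%. Leaving out each library in turn gave counts of 10 to 13, 0 to 13 and 0 to 0 for the 3 steps and 14 to 14 over growth. In the same fits 5.43 to 15%, 0 to 8.78% and 0% of all genes tested rose in the 3 steps and 23.6 to 31.7% over growth.

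With a replicate block for the letters A and B the counts were 14, 13, 0 and 14, and of all genes 17.7%, 9.59%, 1.55% and 34.4% rose instead of 13.2%, 5.27%, 0% and 31.5%, with 3329, 1877, 240 and 7280 called in either direction instead of 2417, 917, 0 and 6661. The differences between A and B correlated between the 3 smaller classes with r of 0.60, 0.59 and 0.67, and between each of these and 60–65 μm with r of -0.22, -0.02 and 0.11. Since not every pair was over 0.1, the letters were not taken to pair the samples.

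The PBAT level of the 6 bodies lay between 34.5% and 39.7% under 7 alternatives, where 10 reads left 3 positions. The body of Oog4 went from 71.7% to between 40.7% and 48.0% at lower read minimums or with both strands summed, and that of Pramef12 from 32.1% to 49.5% at 10 reads. The RRBS means of the arrays depended on the positions used, and the cause was not tested. On chromosome 4 the mean at 40–45 μm was 4.41% with at least 1 read, 3.78% with at least 10, 5.23% with pooled calls and 7.46% over all positions of each library. At 50–55 μm it was 7.54% with pooled calls and 6.57% over all positions. At 60–65 μm it was 5.61%, 5.38%, 6.73% and 9.80% in the order of the first class. On chromosome 12 at least 1 read gave 1.60%, 0.625% and 8.34% for the 3 classes. All positions gave 4.03% and 2.53% there for the first and second class, and 7.27% and 6.99% in libraries A and B of 60–65 μm. At least 10 reads left no position there. Leaving out each RRBS library in turn gave 3.42 to 5.81%, 4.28 to 5.89% and 4.49 to 7.49% on chromosome 4, and 0.402 to 1.60%, 0 to 1.25% and 1.67 to 8.34% on chromosome 12, with the highest value of 5 of these 6 ranges from leaving out library B of 50–55 μm, which covered 109 positions on chromosome 4 where the other 5 covered 141 to 177.

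Depth limits the methylation values, since Oog3 and Oog1 had 25 and 10 PBAT calls in the body and 7 and 4 at the start.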
